A study of Mus musculus with 12 samples.

Results

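Fos, Jund, Klf4, Dusp1 and Nfkbia are 5 genes of the immediate-early response and of the feedback that ends it. They were taken as all probes that carry exactly 1 of these symbols in the probe annotation, which gave 6 of the 20736 probes and 5 of the 8708 genes with a symbol. Klf4 had 2 probes and each of the other genes had 1. Their mRNA was measured on 12 cDNA arrays, each of which held an experimental RNA in one colour channel and RNA of B6 mice in the other. The arrays formed 6 groups of 2. Spleen T cells came from NOD mice, an inbred strain that develops autoimmune diabetes, from NOD.H2h4 mice, a NOD line with a different haplotype of the major histocompatibility complex, and from B6.NODIdd1,5 mice, a B6 line that carries NOD segments at the diabetes loci Idd1 and Idd5. Kidney cells of B6.NODIdd1,5 mice formed the fourth group and were set against B6 kidney cells. The last groups were spleen T cells of mice that had received bone marrow, with a NOD donor and a B6 recipient in NODtoB6, and a B6 donor and a NOD recipient in B6toNOD. All T cell arrays carried B6 spleen T cells in the second channel. On the 8 strain arrays the labels give Cy5 to the experimental RNA and Cy3 to B6. The labels of the 4 marrow arrays name no dyes. The same direction was assumed for them, and every sign of NODtoB6 and B6toNOD values rests on that. Age, sex, pooling of animals, the sort of the T cells, any stimulation, the conditioning of the recipients and the host cells they kept are likewise not stated. Nothing says that the 2 arrays of a group came from separate animals, so p-values measure only the spread between these arrays.

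Fos and Jund encode subunits of AP-1, a dimer of a Fos and a Jun protein or of a pair of Jun proteins that binds DNA near many activation genes. Fos is transcribed within minutes of a signal through MAP kinases and its mRNA is lost almost as fast, whereas Jund is transcribed in most cells without a stimulus. Dusp1 encodes a nuclear phosphatase that is induced by active MAP kinases and switches them off. Nfkbia encodes IkappaB alpha, which holds NF-kappaB in the cytoplasm and is itself an NF-kappaB target gene, so that Dusp1 and Nfkbia each close a feedback loop. Klf4 encodes a zinc finger transcription factor that holds T cells in quiescence and also acts in monocytes.

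Promoter windows of the 3 inducible members Fos, Dusp1 and Nfkbia are shown because some of the letters through which these genes are known to respond lie in them. Elements outside the windows were not searched. The sequences are those of RefSeq (GRCm38.p6), a C57BL/6J genome, and NOD alleles are not analysed here. Each is printed 5′ to 3′ along the gene's strand. Capitals mark TGACG, the core of the cAMP response element, and the TATA box TATAAA in Fos (chr12:85473640-85473939, plus strand), TGACG on either strand in Dusp1 (chr17:26508423-26508722, minus strand), and the match to the kappaB consensus in Nfkbia (chr12:55492598-55492897, minus strand).
Fos: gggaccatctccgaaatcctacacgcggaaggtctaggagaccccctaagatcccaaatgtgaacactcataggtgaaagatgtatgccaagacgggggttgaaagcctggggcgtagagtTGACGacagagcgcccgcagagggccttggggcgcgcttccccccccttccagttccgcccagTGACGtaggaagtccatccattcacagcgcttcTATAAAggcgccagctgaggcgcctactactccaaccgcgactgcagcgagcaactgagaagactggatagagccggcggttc
Dusp1: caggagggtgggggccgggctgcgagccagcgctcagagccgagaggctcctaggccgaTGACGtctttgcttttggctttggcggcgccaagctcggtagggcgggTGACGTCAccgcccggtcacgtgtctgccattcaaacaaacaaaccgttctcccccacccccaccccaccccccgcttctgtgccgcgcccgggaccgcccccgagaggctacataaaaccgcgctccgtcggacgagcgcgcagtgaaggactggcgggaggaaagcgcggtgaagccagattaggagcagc
Nfkbia: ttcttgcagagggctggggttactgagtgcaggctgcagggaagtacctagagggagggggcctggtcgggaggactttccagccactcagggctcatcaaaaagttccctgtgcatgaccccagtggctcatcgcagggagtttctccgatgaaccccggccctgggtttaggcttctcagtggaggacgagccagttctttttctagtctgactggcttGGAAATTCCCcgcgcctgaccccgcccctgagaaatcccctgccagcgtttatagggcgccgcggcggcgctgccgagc
In Dusp1 the last 2 of 3 TGACG matches overlap on opposite strands and spell TGACGTCA. The kappaB match of Nfkbia starts at position -29 relative to the annotated start and the TATAAA of Fos at position -33. Among 32851 such windows of mouse genes searched on both strands, 20.8% held TGACG, 13.6% held TATAAA, 8.46% held a kappaB match and 7.81% held the AP-1 motif TGANTCA. Fos also held 1 kappaB match and Nfkbia 1 TATAAA on the opposite strand, neither in capitals. Klf4 held 1 TGACG, the Jund window held none of the 4 motifs, and no window of the 5 genes held TGANTCA. A match describes the letters only, and binding was not measured.

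An array gave values for 18837 to 20558 probes, and Pearson's r between the arrays of a group was 0.51 to 0.76 across features, which are not independent replicates. The deposited log2 ratios had array medians, over features, of -0.01 and -0.29 in NOD, -0.86 and -0.74 in NOD.H2h4, and -0.21 and -0.14 in the T cells of B6.NODIdd1,5. They were -0.41 and -0.51 in its kidney cells, -0.30 and -0.16 in NODtoB6, and -0.64 and -0.88 in B6toNOD. Values are given from here on as log2 ratios to B6 less that median, so 0 is the typical feature of an array and not the absence of change. Errors after ± are standard errors of the limma fit with n = 2 arrays per group. Only 1 to 3 of 15 T cell markers could be tested in a T cell group, and a ratio between like samples gives no level, so the presence of the labelled cell types could not be checked. The T cell marker Cd28 was at -1.39 in the T cells of B6.NODIdd1,5 (adjusted p = 9.9e-05) and -0.58 in NOD.H2h4 (0.0029). It was at 0.59 in NOD (0.011), 0.61 in NODtoB6 (0.0051) and 0.19 in B6toNOD (0.14). In the kidney cells of B6.NODIdd1,5 Cd28 was at -1.17 (0.0003), so it was lower than B6 in both tissues of this line. Its ratio in this line therefore cannot be read as T cell content alone. Whether Cd28 lies in a NOD segment of the line was not determined here. The other T cell marker tested in the T cells of B6.NODIdd1,5, Cd247, was at -1.23 (adjusted p = 0.031). Of 16 myeloid and neutrophil markers 6 were measured in all groups. Their median was 0.57 in NOD (5 higher, 0 lower), 0.64 in NOD.H2h4 (4 and 2) and -0.36 in the T cells of B6.NODIdd1,5 (2 and 3). It was 0.07 in its kidney cells (2 and 2), 1.70 in NODtoB6 (5 and 1) and 3.01 in B6toNOD (5 and 1). Of 12 erythroid markers 6 or 7 were measured, with a median of 1.18 in NOD (4 higher, 0 lower), 0.23 in NOD.H2h4 (3 and 1), -0.50 in the T cells of B6.NODIdd1,5 (1 and 5), 0.02 in its kidney cells (0 and 1), 1.85 in NODtoB6 (5 and 0) and 0.14 in B6toNOD (2 and 1). In samples of many cells, more cells of a type and more RNA per cell cannot be told apart.

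**Figure D1:**
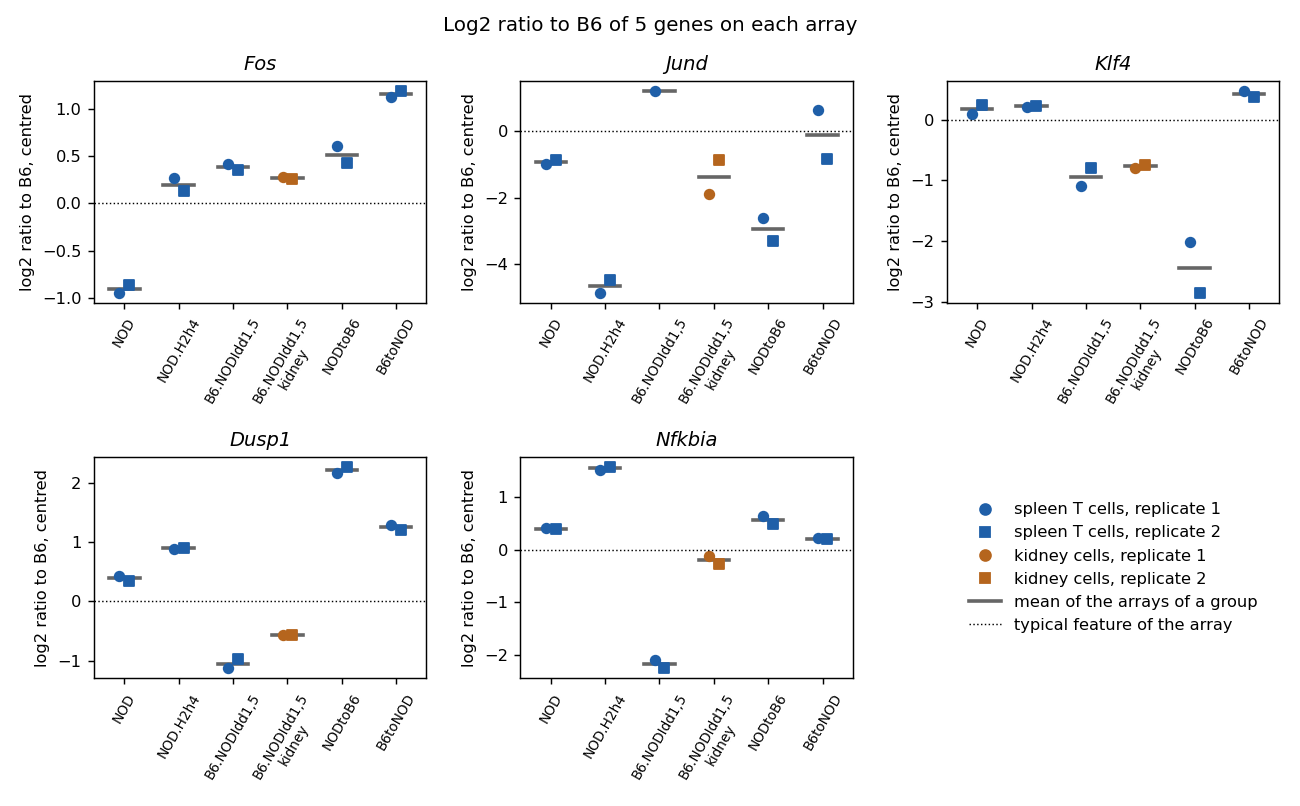
Centred log2 ratio to B6 (vertical axis) of each of the 5 genes on each of the 12 arrays, by group; points are arrays, bars the group mean, and the dotted line at 0 the typical feature of an array. Fos is lowest in NOD, Jund in NOD.H2h4, Klf4 in NODtoB6, and Dusp1 and Nfkbia in B6.NODIdd1,5 T cells.

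Fos was lower than B6 in NOD T cells and higher in B6toNOD T cells, with small values between. Its ratio was -0.95 and -0.86 in NOD, 0.26 and 0.13 in NOD.H2h4, and 0.41 and 0.36 in the T cells of B6.NODIdd1,5. In the kidney cells it was 0.28 and 0.25, in NODtoB6 0.61 and 0.42, and in B6toNOD 1.13 and 1.19. Both NOD arrays lay below 0 and below all 10 other arrays, and both B6toNOD arrays lay above all others. Against B6, Fos fell by 0.90 ± 0.0745 in NOD (a 1.87-fold decrease, adjusted p = 0.00066) and rose by 1.16 ± 0.0745 in B6toNOD (2.23-fold, adjusted p = 2e-05). It also passed at 0.51 in NODtoB6 (adjusted p = 0.0034), 0.38 in the T cells of B6.NODIdd1,5 (0.0076) and 0.27 in its kidney cells (0.029), but not at 0.20 in NOD.H2h4 (0.073). Those smaller calls ended without centring, at 0.28 (adjusted p = 0.094), 0.21 (0.2) and -0.19 (0.2), and NOD.H2h4 then stood at -0.60 (0.0023). Leaving out replicate 1 of the B6.NODIdd1,5 T cells also ended the call there (0.066), and leaving out kidney replicate 1 (0.22) or 2 (0.17) ended the kidney call. In the order of the groups the top step, between the marrow groups, and the bottom step, between NOD.H2h4 and NOD, passed, while the neighbours from NODtoB6 down to NOD.H2h4 differed by 0.07 to 0.13 and not beyond their spread (adjusted p = 0.42 to 0.68). B6toNOD, where Fos was highest, also had the highest myeloid marker median, but NOD had the lowest Fos with a median above 0. The part of such cells in the Fos ratios was not tested.

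Jund gave the widest spread of the 5 genes, both between groups and between the arrays of a group. Its ratio was -0.97 and -0.85 in NOD, -4.86 and -4.47 in NOD.H2h4, and 1.21 on the single T cell array of B6.NODIdd1,5 with a value. In the kidney cells it was -1.90 and -0.86, in NODtoB6 -2.61 and -3.30, and in B6toNOD 0.64 and -0.84. Both NOD.H2h4 arrays lay below every other array, both NODtoB6 arrays came next, and the arrays of B6toNOD lay on either side of 0. Jund fell by 4.66 ± 0.398 in NOD.H2h4 (25.3-fold, adjusted p = 0.00025), the third lowest value among 15840 features tested, and by 2.95 ± 0.398 in NODtoB6 (7.74-fold, adjusted p = 0.0039). The kidney value of -1.38 passed (adjusted p = 0.039), but that call ended in 8 of the 12 fits that left out 1 array. It was -0.86 (0.36) without kidney replicate 1 and -1.90 (0.067) without replicate 2, and it kept its value with an adjusted p of 0.05 to 0.069 without either array of NOD, NOD.H2h4 or NODtoB6. With arrays scaled to one spread Jund in NOD was -1.61 and passed (adjusted p = 0.0087). After centring alone, values of -0.91 in NOD (adjusted p = 0.23) and -0.10 in B6toNOD (0.86) did not pass, and B6.NODIdd1,5 T cells were not tested, since 1 array had no value. Between neighbours in the order no difference passed: NODtoB6 stood 1.71 above NOD.H2h4 (adjusted p = 0.059). As deposited, the only Jund probe read 1.0 on replicate 1 of the B6.NODIdd1,5 T cells and 0.0 on replicate 1 of B6toNOD. Spot intensities are not analysed here, so whether its spots lay near background is not known, and the fold values of Jund carry that limit.

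Klf4 was lower than B6 in both B6.NODIdd1,5 groups and in NODtoB6, and its 2 probes differed in NODtoB6. The mean of the probes was 0.10 and 0.24 in NOD, 0.21 and 0.22 in NOD.H2h4, and -1.09 and -0.79 in the T cells of B6.NODIdd1,5. In the kidney cells it was -0.79 and -0.74, in NODtoB6 -2.02 and -2.85, and in B6toNOD 0.47 and 0.37. Both tissues of B6.NODIdd1,5 and both NODtoB6 arrays lay below 0, and the remaining arrays lay above it. Klf4 fell by 0.94 ± 0.18 in the T cells of B6.NODIdd1,5 (adjusted p = 0.0063), by 0.77 in its kidney cells (0.013) and by 2.44 in NODtoB6 (0.00016). NOD at 0.17 (0.71), NOD.H2h4 at 0.22 (0.37) and B6toNOD at 0.42 (0.08) did not pass. The T cell call of B6.NODIdd1,5 was lost without its replicate 1 (-0.79, adjusted p = 0.072), and the kidney call without kidney replicate 1 (-0.74, 0.12) or 2 (-0.79, 0.099). B6toNOD passed without either NODtoB6 array (0.42, adjusted p = 0.0081).

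The NODtoB6 value of Klf4 is the mean of unlike probes. Probe 13566 gave -0.52 and -0.86 on the NODtoB6 arrays, and probe 19561 gave -3.53 and -4.85. On the 10 other arrays the probes lay within 0.59 of each other. Fitted probe by probe, probe 13566 stood at -0.69 ± 0.133 in NODtoB6 (adjusted p = 0.0096) and probe 19561 at -4.19 ± 0.254 (6.7e-05), so both were lower than B6 but by different amounts. Among 1922 genes with 2 probes the median gap between probes in NODtoB6 was 0.475, and 18 genes (0.936%) had a gap at least as large as the 3.51 of Klf4. In B6.NODIdd1,5, probe 13566 passed in T cells (-1.16, adjusted p = 0.0007) and in kidney (-0.85, 0.0025), while probe 19561 did not (-0.73, 0.065, and -0.68, 0.075). Where each probe lies on the Klf4 transcript was not determined.

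**Figure D2:**
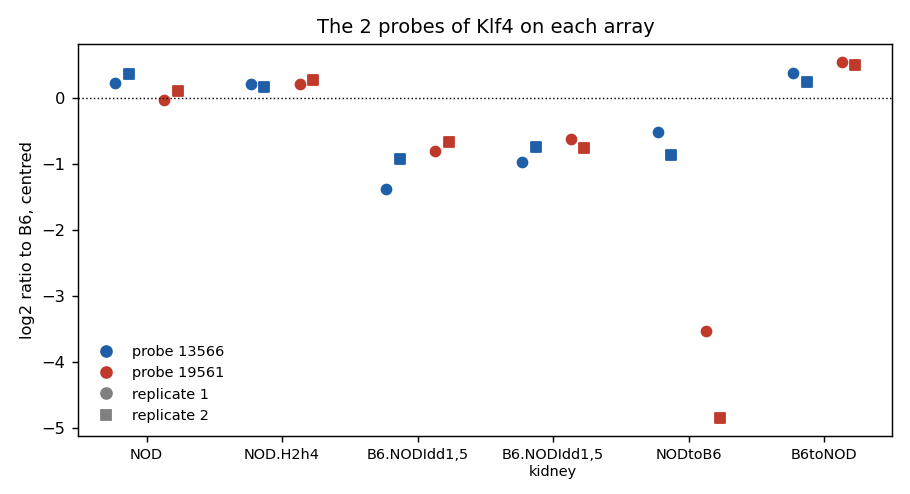
Centred log2 ratio to B6 (vertical axis) of the 2 Klf4 probes on each of the 12 arrays, by group; colour shows the probe and marker shape the replicate. The probes lie within 0.59 of each other except in NODtoB6, where they lie 3.02 and 3.99 apart.

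Dusp1 had closely matching replicates and covered both directions. Its ratio was 0.43 and 0.35 in NOD, 0.89 and 0.91 in NOD.H2h4, and -1.13 and -0.98 in the T cells of B6.NODIdd1,5. In the kidney cells it was -0.57 on both arrays, in NODtoB6 2.17 and 2.28, and in B6toNOD 1.29 and 1.21. Both NODtoB6 arrays lay at the top and both B6.NODIdd1,5 T cell arrays at the bottom. Dusp1 rose by 2.23 ± 0.0699 in NODtoB6 (4.7-fold, adjusted p = 4.5e-06), by 1.25 in B6toNOD (2.38-fold, 1.1e-05) and by 0.90 in NOD.H2h4 (1.86-fold, 0.0001). It fell by 1.06 in the T cells of B6.NODIdd1,5 (2.08-fold, adjusted p = 7.2e-05) and by 0.57 in its kidney cells (1.48-fold, 0.001). The rise in NOD was small at 0.39 (adjusted p = 0.014) and its call ended without NOD replicate 1 (0.11) or 2 (0.12). Without centring the values of NOD (0.24, adjusted p = 0.46) and NOD.H2h4 (0.10, 0.56) did not pass. Every step in the order of the groups passed after centring: NODtoB6 over B6toNOD by 0.97 (adjusted p = 0.00035), B6toNOD over NOD.H2h4 by 0.35 (0.025, with 40.3% of all features called between those groups), NOD.H2h4 over NOD by 0.51 (0.014) and NOD over kidney by 0.96 (0.0018, with 20.4% called). The last step put the T cells of B6.NODIdd1,5 below their kidney cells, at -0.49 (0.013). Without centring this step was -0.21 (adjusted p = 0.62) and that of NOD.H2h4 over NOD was -0.14 (0.6). With arrays scaled to one spread NOD.H2h4 stood 0.045 over NOD (0.87). The myeloid marker median was above 0 in the 4 T cell groups where Dusp1 was above 0 and below 0 in B6.NODIdd1,5 T cells where it was below, but the order differed: B6toNOD had the higher marker median and NODtoB6 the higher Dusp1. The erythroid marker median was highest in NODtoB6 and lowest in B6.NODIdd1,5 T cells, as was Dusp1, and Hbb-b1, a beta globin gene, was at 2.84 in NODtoB6 (adjusted p = 1.5e-05), 1.74 in B6toNOD (3.3e-05), 3.31 in NOD (9.6e-06), 1.85 in NOD.H2h4 (7.1e-05) and -1.20 in B6.NODIdd1,5 T cells (0.0005). NOD, with the highest Hbb-b1, had the smallest Dusp1 value among the 4 groups above 0. In both marrow groups 5 of the 6 measured myeloid markers passed as higher and 1 as lower. The counts were 5 higher and 0 lower in NOD, 4 and 2 in NOD.H2h4, and 2 and 3 in B6.NODIdd1,5 T cells, so markers also ran against these medians. The part of either cell type in the Dusp1 ratios was not tested.

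Nfkbia was highest in NOD.H2h4 and lowest in B6.NODIdd1,5 T cells. Its ratio was 0.41 and 0.38 in NOD, 1.52 and 1.57 in NOD.H2h4, and -2.09 and -2.25 in the T cells of B6.NODIdd1,5. In the kidney cells it was -0.12 and -0.27, in NODtoB6 0.64 and 0.48, and in B6toNOD 0.21 and 0.20. The NOD.H2h4 arrays stood above and the B6.NODIdd1,5 T cell arrays below all others. Nfkbia rose by 1.54 ± 0.077 in NOD.H2h4 (2.91-fold, adjusted p = 4.4e-05), the 160th highest of 15840 features, and fell by 2.17 ± 0.077 in B6.NODIdd1,5 T cells (4.49-fold, adjusted p = 6.4e-06), the 92nd lowest of 14705. It passed at 0.56 in NODtoB6 (adjusted p = 0.0027) and 0.39 in NOD (0.018), and did not pass at 0.20 in B6toNOD (0.059) or -0.19 in kidney (0.097). The NOD call ended without NOD replicate 1 (0.12) or 2 (0.16). Without centring NOD (0.24, adjusted p = 0.4) and NODtoB6 (0.33, 0.11) did not pass, NOD.H2h4 stood at 0.74 (0.0022), and kidney (-0.65, 0.0089) and B6toNOD (-0.56, 0.0063) passed as lower. NOD.H2h4 exceeded its neighbour NODtoB6 by 0.98 (adjusted p = 0.00054, with 34.3% of all features called between them), and the T cells of B6.NODIdd1,5 stood below their kidney cells at -1.97 (9.5e-05), whereas NODtoB6, NOD and B6toNOD did not differ step by step beyond their spread (0.35 and 0.22). In the T cells of B6.NODIdd1,5, where Nfkbia, Dusp1 and Klf4 were lower, both T cell markers tested and 5 of 7 erythroid markers were lower too. Of these T cell markers, Cd28 was also lower in the kidney cells (-1.17, adjusted p = 0.0003), where Nfkbia did not pass. The part of such cells in these ratios was not tested.

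The calls of the 5 genes were read against the share of all features called in the same direction. In NOD, 2 members were higher (9.79% of all features) and 1 was lower (2.46%), with 2 not past. In NOD.H2h4, 2 were higher (24.1%), 1 was lower (15.4%) and 2 were not past. Of the 4 tested in the T cells of B6.NODIdd1,5, 1 was higher (14.4%) and 3 were lower (15.9%). In its kidney cells 1 was higher (22.4%), 3 were lower (11.1%) and 1 was not past. In NODtoB6, 3 were higher (13.8%) and 2 were lower (13.1%). In B6toNOD, 2 were higher (28.5%), 0 were lower (22.9%) and 3 were not past, near the background shares. With 5 genes chosen with earlier results of these data known, these counts describe the genes and do not set them apart from other lists. Between the highest and the lowest group mean lay 2.06 for Fos, 5.88 for Jund, 2.86 for Klf4, 3.28 for Dusp1 and 3.71 for Nfkbia, against a median of 1.22 over all named genes on 12 arrays. Jund had values on 11 arrays, and its range takes as highest the single B6.NODIdd1,5 T cell array with a value (1.21). Next highest was B6toNOD, 4.57 above NOD.H2h4. The Klf4 range rests on its probe mean: it was 1.47 on probe 13566, whose lowest group was B6.NODIdd1,5 T cells, and 4.72 on probe 19561, whose lowest was NODtoB6.

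Differences between groups were tested in the same fit. NOD.H2h4 T cells minus NOD T cells asks what changes with the H2h4 haplotype on the NOD background. There 3 members were higher (12% of all features), 1 was lower (6.22%) and 1 was not past. Fos was 1.10 ± 0.105 higher in NOD.H2h4 than in NOD (adjusted p = 0.0019) and Nfkbia 1.15 ± 0.109 higher (0.0019). The difference of Jund was -3.75 (adjusted p = 0.0085), and this call ended without NOD replicate 2 (0.051) or NOD.H2h4 replicate 1 (0.056). Without centring Fos (0.45, adjusted p = 0.057) and Nfkbia (0.50, 0.075) did not pass. The Dusp1 difference of 0.51 (adjusted p = 0.014) turned to -0.14 (0.6) without centring and ended without NOD replicate 2 (0.07), NOD.H2h4 replicate 1 (0.071) or replicate 2 (0.077). With arrays scaled to one spread the Dusp1 difference was 0.045 (adjusted p = 0.87). For Klf4 the difference after centring was 0.05, with a 95% interval of -0.53 to 0.63.

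B6.NODIdd1,5 T cells minus NOD T cells set the NOD intervals on B6 against the whole NOD genome. Of the 4 members tested 1 was higher (9.41% of all features) and 3 were lower (14.9%). Fos was 1.29 higher in B6.NODIdd1,5 than in NOD (adjusted p = 0.00026), while Nfkbia was lower at -2.56 (1.4e-05), Dusp1 at -1.45 (0.00012) and Klf4 at -1.11 (0.017). The Klf4 call ended without NOD replicate 1 (0.057) or 2 (0.099) and without replicate 1 of the other group (0.075). In the same mice, T cells minus kidney cells gave 2 lower (14.1% of all features), 0 higher (6.9%) and 2 not past among the 4 tested. Nfkbia was lower in the T cells at -1.97 (adjusted p = 9.5e-05) and Dusp1 at -0.49 (0.013). Fos differed by 0.12 (95% interval -0.13 to 0.36) and Klf4 by -0.17 (-0.75 to 0.41), neither past the threshold. The Dusp1 value was -0.21 (adjusted p = 0.62) without centring, and its call ended without T cell replicate 1 (0.054) or either kidney array (0.077 and 0.078).

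NODtoB6 minus B6toNOD set the 2 directions of marrow transfer against each other. Of the 5 members 2 were higher (13.8% of all features) and 3 were lower (22.2%). Klf4 was lower in NODtoB6 than in B6toNOD at -2.86 (adjusted p = 0.00019), of which probe 13566 gave -0.999 (0.0048) and probe 19561 -4.72 (0.00011). Dusp1 was 0.97 higher in NODtoB6 (adjusted p = 0.00035) and Jund lower at -2.85 (0.0089), a call that ended without NODtoB6 replicate 2 (0.052). Fos was lower in NODtoB6 at -0.64 (adjusted p = 0.0028), but only -0.11 (0.58) without centring and -0.17 (0.54) with arrays scaled to one spread. Nfkbia passed at 0.35 (adjusted p = 0.039), a call that ended in 9 of the 12 fits that left out 1 array: without either array of NOD, NOD.H2h4, kidney or B6toNOD, and without NODtoB6 replicate 1 (0.056 to 0.15).

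The marrow groups were also set against NOD T cells, across 2 sets of arrays whose values carry different decimals, so that set and group cannot be told apart. In NODtoB6 minus NOD, 2 members were higher (7.52% of all features), 1 was lower (11.6%) and 2 were not past. Fos was 1.42 higher (adjusted p = 0.00075), Dusp1 1.84 higher (0.00022) and Klf4 lower at -2.61 (0.0016) in NODtoB6. Jund at -2.04 did not pass (0.051), and Nfkbia differed by 0.16 (95% interval -0.09 to 0.42). Both passed with a running median along the probe order, Jund at -2.59 (adjusted p = 0.037) and Nfkbia at 0.47 (0.026). With arrays scaled to one spread Nfkbia was at -0.086 (0.69). Jund also passed at -2.04 (0.049) when features needed a value on at least 1 array of each group. In B6toNOD minus NOD, 2 were higher (19.8%), 0 were lower (16.2%) and 3 were not past. Nfkbia was among the last at -0.19 (adjusted p = 0.22). It passed as lower at -0.80 (0.011) without centring and at -0.57 (0.021) with arrays scaled to one spread. Fos was 2.06 higher in B6toNOD (adjusted p = 4e-05). Dusp1 was 0.86 higher (adjusted p = 0.00057), a value of 0.25 (0.33) without centring and 0.10 (0.62) with arrays scaled to one spread. With arrays scaled to one spread Jund passed in both, at -1.57 in NODtoB6 minus NOD (adjusted p = 0.035) and 1.54 in B6toNOD minus NOD (0.04). All these comparisons share NOD, B6.NODIdd1,5 or marrow arrays with one another and are not independent.

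**Figure D3:**
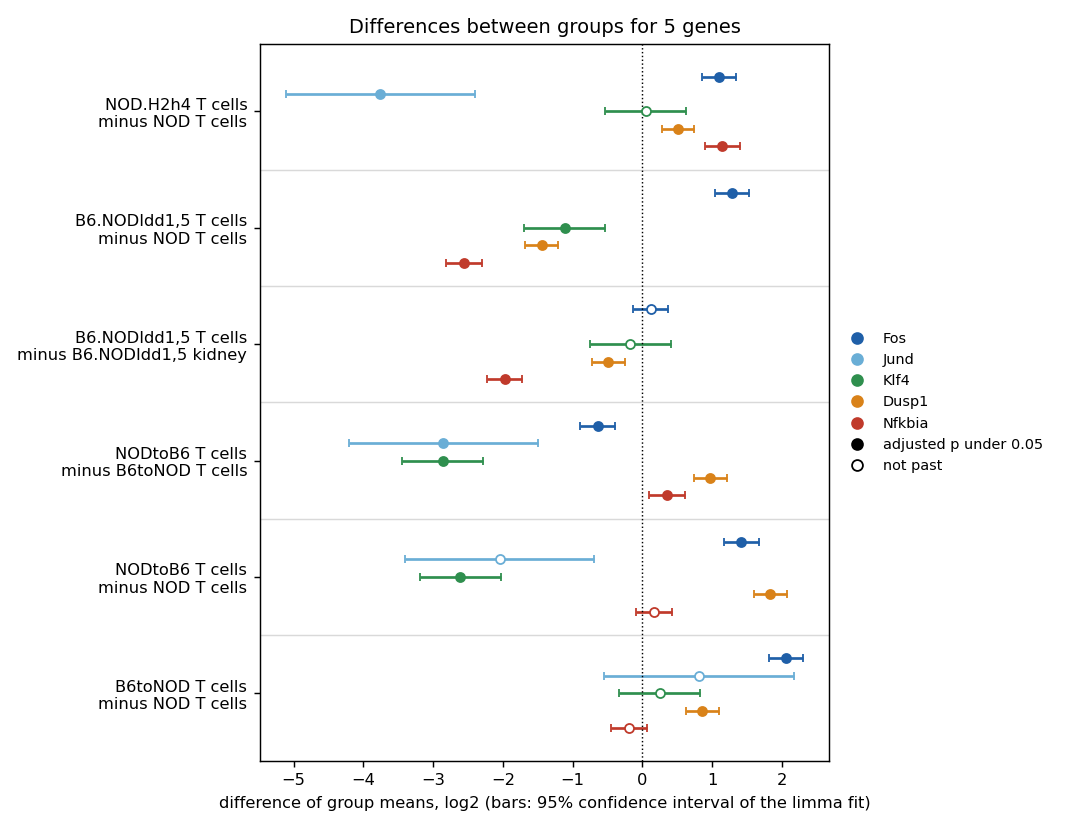
Difference of group means on the log2 scale (horizontal axis) for the 5 genes in 6 comparisons between groups; points are estimates, bars 95% intervals of the limma fit, and filled points have an adjusted p under 0.05. Jund has the widest intervals, Fos is above 0 in all comparisons with NOD, and Nfkbia is at -2.56 and -1.97 in the comparisons of B6.NODIdd1,5 T cells.

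The genes whose pattern was most like each member were ranked by Pearson's r over the 12 arrays among 6915 other genes with complete values (11 arrays for Jund). The arrays share groups and the B6 channel, and the r values are descriptions. For Fos these were Gna11 (r = 0.941), Slc22a15 (0.939) and Zfp120 (0.935). Gna11, a G protein alpha subunit gene, averaged 1.005 in B6toNOD and -0.41 in NOD. For Dusp1 they were Map3k7 (0.966), which encodes the kinase TAK1 upstream of MAP kinases and NF-kappaB, Arhgap9 (0.959) and Sec61g (0.920). Map3k7 averaged 1.69 in NODtoB6, 1.63 in B6toNOD and -0.69 in B6.NODIdd1,5 T cells. For Klf4 they were Irak2 (0.976), a kinase gene of interleukin-1 receptor signalling, Jmjd4 (0.960) and Igf2r (0.955). That ranking used the mean of the Klf4 probes, which differed in NODtoB6, and was not made for each probe. For Nfkbia they were Rnasek (0.962), Bud31 (0.940) and Lima1 (0.940), and for Jund Rars (0.910), Usp21 (0.893) and Atg5 (0.893). Among the 5 genes themselves, Jund and Nfkbia ran opposite (r = -0.82 over 11 arrays) and Dusp1 and Nfkbia alike (0.70), while the other 8 pairs had r between -0.46 and 0.25.

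A list of 37 immediate-early and feedback genes, which holds the 5, had 20 to 22 genes tested per group. Without the 5, which left 16 or 17, 0 were higher and 1 lower in NOD (median -0.08), 2 higher and 4 lower in NOD.H2h4 (-0.19), 2 higher and 4 lower in the T cells of B6.NODIdd1,5 (-0.30), and 2 higher and 2 lower in its kidney cells (-0.20). In NODtoB6, 5 were higher and 1 lower (median 0.08), and in B6toNOD 8 were higher and 4 lower (0.31), beside medians of -0.04 to 0.01 over all features. The shares of all features called higher and lower, against which these counts and those of the lists below are to be read, were 9.79% and 2.46% in NOD, 24.1% and 15.4% in NOD.H2h4, and 14.4% and 15.9% in the T cells of B6.NODIdd1,5. They were 22.4% and 11.1% in its kidney cells, 13.8% and 13.1% in NODtoB6, and 28.5% and 22.9% in B6toNOD. Genes of the lists are given after centring only, so a rise smaller than the median subtracted from its arrays depends on the centring. Ier2, an immediate-early gene of a nuclear regulator, fell by 0.72 ± 0.112 in NOD (adjusted p = 0.0084), where Fos also fell, and rose by 0.46 in kidney (0.017). Jun, the classical partner of Fos, rose by 0.69 in B6.NODIdd1,5 T cells (adjusted p = 0.0016). Egr1, a zinc finger factor induced by MAP kinases, rose by 0.998 ± 0.251 in kidney (adjusted p = 0.019). Zfp36, whose protein speeds the decay of cytokine mRNAs, rose by 1.87 ± 0.144 in NODtoB6 (adjusted p = 0.0011), the group in which Dusp1 was highest, and by 0.86 in B6toNOD (0.0051). In B6toNOD the lowest values past the threshold were Csrnp1 at -1.72 (adjusted p = 0.0033) and Zfp36l1, a relative of Zfp36, at -1.09 (2.1e-05).

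**Figure D4:**
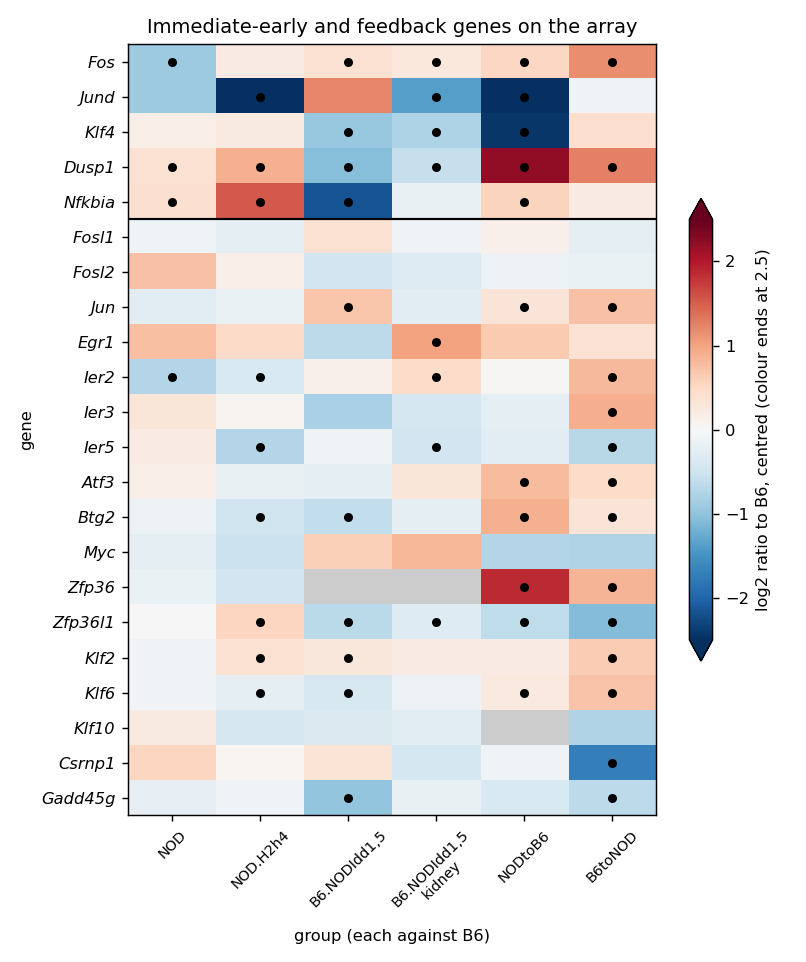
Centred log2 ratio to B6 (colour, ending at 2.5 either way) of 22 genes of the immediate-early and feedback list in the 6 groups, the 5 members on top; dots mark an adjusted p under 0.05 and grey means no value. Dots are sparse in NOD and most frequent in B6toNOD.

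The other genes of the pathways were counted in the same way, without the 5. Among 26 AP-1 and ATF/CREB factors, which hold Fos and Jund, 9 or 10 others were tested. None passed in NOD, 1 was higher and 2 lower in NOD.H2h4, 2 and 1 in the T cells of B6.NODIdd1,5, 0 and 1 in its kidney cells, 2 and 2 in NODtoB6, and 3 and 2 in B6toNOD. Atf4, a factor of the amino acid and stress response, was at -0.97 in NOD.H2h4 (adjusted p = 0.00025), -0.79 in the T cells of B6.NODIdd1,5 (0.001) and 0.90 in B6toNOD (0.00022). Of 10 dual-specificity phosphatase genes 4 besides Dusp1 were tested, of which only Dusp10 passed in NOD, at 1.42 (adjusted p = 0.0066), and it was at 0.83 in NOD.H2h4 (0.014) and -1.45 in B6toNOD (0.00074). Among MAP kinases and their kinases, 9 to 11 of 18 were tested, and none passed in NOD. Map2k1, the kinase that activates ERK, was at -0.90 in NOD.H2h4 (adjusted p = 9.1e-05) and -0.25 in the T cells of B6.NODIdd1,5 (0.026), and was higher at 0.27 in NODtoB6 (0.024) and 0.68 in B6toNOD (0.00013). Of 17 Kruppel-like factor genes 7 or 8 besides Klf4 were tested. After centring, Klf2, a quiescence factor of naive T cells, was at 0.38 in NOD.H2h4 (adjusted p = 0.0033), 0.28 in the T cells of B6.NODIdd1,5 (0.018) and 0.64 in B6toNOD (0.00018). The medians subtracted were -0.86 and -0.74 in NOD.H2h4 and -0.64 and -0.88 in B6toNOD, so the Klf2 rises in these groups depend on the centring.

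NF-kappaB subunit and IkappaB genes gave 4 tested besides Nfkbia, of 11 listed. After centring, Rela, the main activating subunit, was at 0.52 ± 0.0653 in NOD (adjusted p = 0.0046), 0.73 in NOD.H2h4 (0.00016) and 0.86 in B6toNOD (4e-05). Nfkbiz, a nuclear IkappaB protein gene, passed in the direction of Nfkbia at 0.44 in NOD.H2h4 (adjusted p = 0.015) and -0.68 in the T cells of B6.NODIdd1,5 (0.0031), and also passed at -0.52 in its kidney cells (0.0089), where Nfkbia did not. The medians subtracted in NOD.H2h4 were -0.86 and -0.74, so the values of Rela and Nfkbiz above 0 there depend on the centring. In B6toNOD they were -0.64 and -0.88, beside the 0.86 of Rela. Nfkbib, another cytoplasmic inhibitor, was at 0.78 in NODtoB6 (adjusted p = 0.044) and -1.59 in B6toNOD (0.00096). Among 29 upstream kinases, adaptors and inhibitors, 13 to 15 were tested, and 1 was higher and 5 lower in B6.NODIdd1,5 T cells (median -0.51); the counts were 2 and 0 in NOD (0.04), 3 and 3 in NOD.H2h4 (-0.22), 2 and 4 in kidney (-0.34), 2 and 2 in NODtoB6 (0.15) and 3 and 3 in B6toNOD (-0.19). Map3k14, the kinase NIK of the alternative NF-kappaB pathway, fell by 1.40 in B6.NODIdd1,5 T cells (adjusted p = 8.3e-05), where Tnip1, a partner of the deubiquitinase A20, rose by 1.51 (2.5e-05). Map3k14 also fell in the other groups except NOD, with values of -1.02 to -0.61. Tnip1 was higher in NOD (0.91) and NOD.H2h4 (0.61) too, and lower in kidney (-0.33), NODtoB6 (-0.60) and B6toNOD (-0.52), each past the threshold. Only 4 or 5 of 27 NF-kappaB target genes could be tested, with 2 lower and 0 higher in NOD.H2h4 and in B6.NODIdd1,5 T cells, 1 of each in B6toNOD and 0 past elsewhere.

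Heat shock genes, whose mRNAs are known to rise with those of immediate-early genes during tissue handling, were counted beside them and read against the shares of all features given above. Of 16, 10 or 11 were tested. None was higher and 4 were lower in each of NOD, NOD.H2h4 and the T cells of B6.NODIdd1,5, 5 were higher and 1 lower in its kidney cells, 0 and 6 in NODtoB6, and 4 and 1 in B6toNOD. Hspa8, a constitutive chaperone gene, was at -0.80 in NOD (adjusted p = 0.00054), -0.57 in NOD.H2h4 (0.00037), -1.25 in the T cells of B6.NODIdd1,5 (2.5e-05), 0.77 in its kidney cells (0.00029) and 1.99 in B6toNOD (2.2e-06). It did not pass in NODtoB6 (0.11, adjusted p = 0.24). In NOD, kidney and B6toNOD its sign was that of Fos, and in B6.NODIdd1,5 T cells and NOD.H2h4 it was not. The 1 lower gene was Hsph1 in kidney, at -0.54 (adjusted p = 0.027), and Dnajb1 in B6toNOD, at -0.49 (0.00077). In NODtoB6, where 6 heat shock genes were lower and 0 higher, Fos was higher at 0.51. Hspa1a and Hspa1b of the list were not among the genes tested. The part of handling in the ratios of Fos, Dusp1 or Nfkbia was not tested.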

How the data were processed

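RNA of 12 samples was measured on 2-colour mouse cDNA arrays. The authors deposited log2 values, experimental over B6, in the direction that the labels state for the 8 strain arrays. Upstream tools, genome build and any normalisation: not given in the sources used here. These log2 values were used as they stand, except that 146 values equal to the log2 of 100000, none in the 6 member probes, were taken as missing. Of 20736 probes, 13033 carry 1 symbol, 312 several and 7391 none, and 12850 symbols were brought up to date by their gene identifier in RefSeq. Probes of a gene were averaged and probes without a single symbol kept as unnamed, which gave 16411 features, and the median over features was subtracted from each array. Groups were fitted together as means over 12 arrays with limma 3.58.1 in R 4.3.3 (lmFit, eBayes, 6 residual and 1.36 prior degrees of freedom). The mean ratio against 0 is the comparison with B6 and leaves out the spread of B6. Benjamini-Hochberg adjustment was made over all features tested in a comparison, with a threshold of 0.05, and a feature missing on any array of its groups was left out. The fit was tested on simulated data.

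The 5 genes and all gene lists were chosen with earlier results of these data known. Named genes were the 5 members, the 3 genes most like each, and per list and comparison with B6 the 2 largest positive and 2 largest negative values past the threshold whose arrays had one sign; Nfkbiz in NOD.H2h4, Map2k1 and Zfp36 in B6toNOD, and Map3k14 and Tnip1 in all groups are also described where that rule did not pick them, which was decided after their values were seen. The numbers S1 and S2 were not used to pair samples in the main fit. Correlations of same-numbered deviations were -0.04 to 0.02 over 15 pairs of groups. They show no shared effect of the number, but cannot show whether samples were paired. Alternatives were no centring, scaling, a running median along the probe order, the missing value kept, other filters, the median over probes, the replicate block, a robust prior, each array left out, and the marrow arrays turned. Centring over all probes, the fit by probe, each Klf4 probe alone and 9 further group differences were added after the values were seen. Probe coordinates are not given, since the files name no build. The number of arrays limits the precision.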

Additional observations from a re-analysis of the deposited data

Results flagged for a closer look

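Nfkbia and Dusp1 differed between the tissues of B6.NODIdd1,5 mice, each set against the matching B6 tissue, by the test of the difference itself. Nfkbia was at -2.17 in T cells and -0.19 in kidney, a difference of -1.97 (limma, adjusted p = 9.5e-05). Dusp1 was at -1.06 in T cells and -0.57 in kidney, a difference of -0.49 (adjusted p = 0.013). The Dusp1 difference was -0.21 (adjusted p = 0.62) without centring, and its call ended without T cell replicate 1 (0.054) or either kidney array (0.077 and 0.078). In the other T cell groups Nfkbia was at 1.54 in NOD.H2h4, 0.56 in NODtoB6, 0.39 in NOD and 0.20 in B6toNOD, the last not past the threshold (adjusted p = 0.059).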

How the results depend on the processing

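Over all alternatives the values of the 5 genes kept direction and side of the threshold in 1237 of 1347 instances, with 56 calls lost, 16 gained and 37 signs turned. This total does not measure how firm the calls are. It holds 717 instances with 1 array left out, many from a group outside the comparison, where the estimate stays the same. Turning the NODtoB6 or B6toNOD arrays gave 13 and 9 of the turned signs by design. Without centring only 38 of 60 stayed the same. Without centring these turned: in NOD.H2h4, Fos -0.60 and Klf4 -0.58; in kidney, Fos -0.19; in B6toNOD, Klf4 -0.34 and Nfkbia -0.56; in NOD.H2h4 minus NOD, Dusp1 -0.14 and Klf4 -0.60; in B6.NODIdd1,5 T cells minus kidney, Klf4 0.11; and in B6toNOD minus NOD, Klf4 -0.36. With arrays scaled to one spread, Klf4 was -0.11 in NOD.H2h4 minus NOD and -0.020 in B6toNOD minus NOD, and Nfkbia -0.086 in NODtoB6 minus NOD. With the running median Klf4 was -0.077 in NOD.H2h4 minus NOD. Leaving out 1 array, Klf4 in NOD.H2h4 minus NOD ran from -0.0235 to 0.12 and Jund in B6toNOD from -0.84 to 0.64. The replicate block changed 1 call of the 5 genes, Jund in kidney (-1.38, adjusted p = 0.062), and the numbers are not known to pair samples. With the NODtoB6 arrays turned, that group gave Fos -0.51, Jund 2.95, Dusp1 -2.23, Klf4 2.44 and Nfkbia -0.56, with Jund 3.05, Dusp1 -3.48, Klf4 2.02 and Nfkbia -0.76 in NODtoB6 minus B6toNOD, and Jund 3.86, Dusp1 -2.61, Klf4 2.27 and Nfkbia -0.95 in NODtoB6 minus NOD. With the B6toNOD arrays turned, that group gave Fos -1.16, Jund 0.10, Dusp1 -1.25, Klf4 -0.42 and Nfkbia -0.20, with Fos 1.67 in NODtoB6 minus B6toNOD, and Fos -0.25, Dusp1 -1.64 and Klf4 -0.59 in B6toNOD minus NOD.

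Counts of all features called moved too, and the cause was not tested. Without centring 191 features passed in NOD (1951 with it), 10076 in NOD.H2h4 (6252), 4293 in NOD.H2h4 minus NOD (2835), 1954 in B6.NODIdd1,5 T cells minus NOD (3516), 1410 in B6.NODIdd1,5 T cells minus kidney (3043) and 1419 in NODtoB6 minus NOD (2874). The share called higher without centring was 55.0% in NOD (79.9% with it), 3.75% in NOD.H2h4 (61.0%), 26.8% in the T cells of B6.NODIdd1,5 (47.6%), 8.54% in its kidney cells (67.0%), 16.7% in NODtoB6 (51.3%) and 9.5% in B6toNOD (55.4%). It was 1.54% in NOD.H2h4 minus NOD (65.9% with centring), 73.3% in B6.NODIdd1,5 T cells minus kidney (32.8%), 80.7% in NODtoB6 minus B6toNOD (38.2%), 21.5% in NODtoB6 minus NOD (39.3%) and 11.4% in B6toNOD minus NOD (55.1%). Scaling gave 4951 in NOD, 4512 in B6toNOD (7342 unscaled), 5473 in B6.NODIdd1,5 T cells minus NOD, 3127 in NODtoB6 minus B6toNOD (4918 unscaled) and 4788 in NODtoB6 minus NOD. It moved the share called higher to 63.7% in NOD, 44.8% in NOD.H2h4 minus NOD and 44.2% in B6toNOD minus NOD. Leaving out 1 array gave 189 to 2459 in NOD, 3830 to 7512 in NOD.H2h4, 3358 to 5442 in the T cells of B6.NODIdd1,5, 2483 to 6385 in its kidney cells, 2317 to 5451 in NODtoB6 and 6801 to 7645 in B6toNOD. For the differences it gave 993 to 3829 in NOD.H2h4 minus NOD, 1613 to 4529 in B6.NODIdd1,5 T cells minus NOD, 1495 to 3747 in B6.NODIdd1,5 T cells minus kidney, 3919 to 5748 in NODtoB6 minus B6toNOD, 884 to 3890 in NODtoB6 minus NOD and 3431 to 5857 in B6toNOD minus NOD. Signal over background is unknown.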
